A study of Sus scrofa with 35 samples.

Results

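The genes described here encode the factors that start and extend protein synthesis in the pig, chosen as every row whose symbol begins with EIF followed by a digit of 1 to 6 or with EEF followed by 1 or 2, in the deposited RNA-seq tables. The rule found 61 genes among the 14673 genes of the tables, of which 60 were in each pEPSC table and 48 in the embryo table. It takes in the subunits of the complexes and also their kinases, binding proteins and methyltransferases, and it uses the symbol only, not any measured value. EIF4E1B was in the embryo table alone, and 13 genes were in the pEPSC tables alone, EIF3F, EEF1G, EEF1D, EEF1A2, EIF1AY and EIF2AK3 among them. All members passed the filter on low values, which kept nuclear genes with at least 1 TPM (a relative abundance corrected for transcript length and library total) in at least 3 libraries of a comparison. EIF3B, EIF3C, EIF4B and EIF2B4 were not analysed here.

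The RNA came from porcine expanded potential stem cells (pEPSCs), a cultured stem cell type with a broad developmental potential, and from pig embryos at the 4-cell stage. The pEPSC groups were cells overexpressing OTX2, cells with OTX2 knocked out, cells overexpressing LEUTX and wild-type cells. The embryo groups were embryos overexpressing OTX2 and wild-type embryos. Each group had 3 libraries, so that 18 of the 35 samples of the series were used. OTX2 and LEUTX are homeobox transcription factors. The labels do not say how overexpression was achieved, and they do not name separate cultures or animals for the libraries, so p-values measure only the spread between these libraries. The knockout columns carry one line name with the numbers 1, 3 and 4, which may mean a single clone. Each embryo library was made from 10 pooled zona-free embryos by a full-length poly(A)-primed method. In these bulk libraries fewer cells of a type and less RNA per cell cannot be told apart.

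Translation begins when the eIF2 trimer, carrying the initiator tRNA and GTP, joins the small ribosomal subunit together with EIF1, EIF1A, eIF3 and EIF5. The eIF4F complex, made of the cap-binding EIF4E, the scaffold EIF4G and the helicase EIF4A, brings the mRNA, and EIF5B then helps the large subunit to join. eEF1 delivers aminoacyl-tRNAs during elongation and eEF2 moves the ribosome along the mRNA. Signals reach the machinery in large part through kinases that phosphorylate the alpha subunit of eIF2, which blocks its exchange factor eIF2B, and through 4E-binding proteins that keep EIF4E from EIF4G. Early embryos translate stored maternal mRNAs before their own genome is fully active.

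Levels are given as TPM after rescaling each library so that nuclear genes alone make up the total, because mitochondrially encoded RNA took unequal shares. That share was 9.0 to 10.1% in OTX2-overexpressing, 10.2 to 22.3% in OTX2-knockout, 15.8 to 16.0% in LEUTX-overexpressing and 14.5 to 15.7% in wild-type pEPSCs, and 51.3 to 51.8% in OTX2-overexpressing and 55.5 to 57.5% in wild-type embryos. The knockout library with the 22.3% share was library 1, which correlated at 0.975 with the other knockout libraries across genes, against 0.994 between these. OTX2 averaged 10883 ± 1074 TPM in OTX2-overexpressing, 133 ± 9.92 in OTX2-knockout, 0.251 ± 0.0971 in LEUTX-overexpressing and 303 ± 4.43 in wild-type pEPSCs, and 19134 ± 2514 TPM in OTX2-overexpressing and 716 ± 51.8 in wild-type embryos (SD, n = 3 each). LEUTX averaged 3739 ± 69.8 TPM in LEUTX-overexpressing pEPSCs and was listed at 0 in wild-type pEPSCs. OTX2 was thus far lower in LEUTX-overexpressing cells than in the knockout. In embryos LEUTX averaged 73.1 ± 80.5 TPM with OTX2 overexpression and 1172 ± 360 TPM in wild type. The summed level of 7 pluripotent cell markers was 2660 to 2966 TPM in OTX2-overexpressing, 4676 to 7385 in OTX2-knockout, 3664 to 3757 in LEUTX-overexpressing and 6187 to 6632 in wild-type pEPSCs. The markers did not all move alike. With LEUTX the means of POU5F1 (1994 against 1836 TPM) and TDGF1 (124 against 40.3 TPM) were above wild type. Those of DNMT3B (435 against 2038 TPM), LIN28A (597 against 1747 TPM), SOX2, NANOG and SALL4 were below it. In the knockout the means of POU5F1 (2195 TPM), NANOG and DNMT3B were above wild type and the others below, and with OTX2 overexpression all were below. A fibroblast list of 7 genes, of which 3 or 4 were in each pEPSC table, summed to 42.6 to 47.5 TPM in OTX2-overexpressing, 28.7 to 48.6 TPM in OTX2-knockout, 6.66 to 8.26 TPM in LEUTX-overexpressing and 11.3 to 14.7 TPM in wild-type pEPSCs. In embryos all 8 oocyte and cleavage markers were present, at 7046 to 7387 TPM with OTX2 overexpression against 5397 to 6342 TPM in wild type, while COL1A2 alone of the fibroblast list was found, at 1.75 to 2.96 TPM against 1.96 to 2.26 TPM. No cumulus marker of 7 was in the embryo table. These marker levels moved with the groups, and their part in the results below was not tested.

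The elongation factor genes held the largest part of this RNA in pEPSCs. The members together averaged 36840 ± 622 TPM in OTX2-overexpressing, 38368 ± 841 TPM in OTX2-knockout, 31696 ± 180 TPM in LEUTX-overexpressing and 41254 ± 1179 TPM in wild-type pEPSCs (SD, n = 3 each), so wild-type cells gave 4.13% of their nuclear TPM to them and LEUTX-overexpressing cells 3.17%. In wild-type pEPSCs EEF1A1, which delivers aminoacyl-tRNA to the ribosome, was the most abundant, at 17101, 18060 and 16451 TPM, and the helicase EIF4A1 and the translocase EEF2 followed at 3295 ± 105 and 2791 ± 91.6 TPM. Of the 60 members, 7 averaged at least 1000 TPM in wild-type pEPSCs and 6 averaged under 10 TPM. The libraries of EIF4A1 and EEF2 did not overlap, while those of the neighbours EIF3L and EIF3H, at 616 ± 23.3 and 598 ± 21.8 TPM, did. Embryos had another order, as far as tables normalized separately and made by different library methods can be set side by side. In wild-type embryos EIF1, which helps the scanning ribosome choose the start codon, led with 1754, 2025 and 3184 TPM, followed by the eIF3 subunit EIF3M at 873 ± 164 and the scaffold-like EIF4G2 at 678 ± 24.5 TPM. EEF1A1 ranked 6 of 48 there, at 466 ± 77.4 TPM, and EEF2 averaged 19.8 ± 9.06 TPM. The members together averaged 8174 ± 331 TPM in OTX2-overexpressing and 8907 ± 1376 TPM in wild-type embryos.

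**Figure D1:**
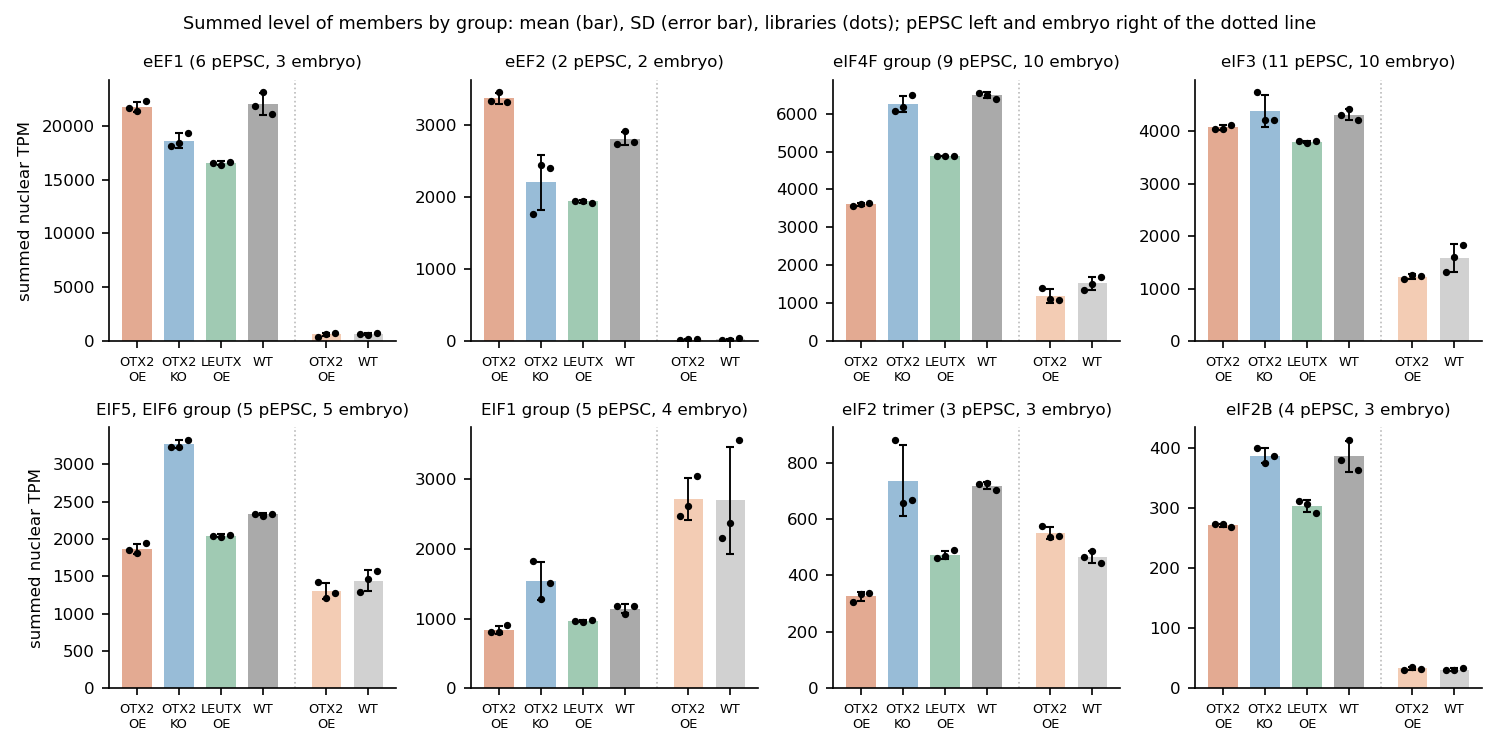
Summed nuclear TPM of the members of 8 groups of translation factors, in pEPSC and embryo groups; bars are means, error bars 1 SD and dots the 3 libraries. Among the pEPSC groups the eIF2 trimer and eIF4F bars are lowest with OTX2 overexpression, at 326 and 3603 TPM. The eEF1 bars of the embryos are far below those of the pEPSCs.

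Each group was then compared with the wild type of its own table in limma, on log2(TPM + 1), with p-values adjusted by Benjamini and Hochberg over all genes tested and called under 0.05. The fold changes below are on that scale, which understates the change of low genes. A fold change written with ± has its standard error there, and a level with ± its SD over 3 libraries. In OTX2-overexpressing pEPSCs 12 members rose, 37 fell and 11 did not pass, where 82.2% of 13252 genes passed, 45.4% higher and 36.8% lower. The median log2 fold change of the members was -0.43, against 0.12 over all genes. At least 2-fold, 13 members fell and 1 rose, where 11.4% of all genes fell and 21.5% rose. In OTX2-knockout pEPSCs 11 members rose and 13 fell where 45.5% of 12257 genes passed, 17.6% higher and 27.9% lower, and the members' median was -0.05 against -0.12. Without knockout library 1, 15 members rose and 23 fell, where 3411 and 4420 of 12163 genes did. All 24 member calls were among them. At least 2-fold, 2 members fell in the knockout, where 6.74% of all genes did. In LEUTX-overexpressing pEPSCs 9 rose and 37 fell where 70.3% of 12546 genes passed, 42.8% higher and 27.5% lower, and the median was -0.19 against 0.12. EIF4EBP2 was the 1 member that fell at least 2-fold with LEUTX, where 3.8% of all genes did. In embryos overexpressing OTX2 3 members rose and 10 fell of 48, where 16.2% of 8603 genes passed, 7.65% higher and 8.59% lower, and the median was -0.08 against 0.16. At least 2-fold, 10 members fell and 2 rose in embryos, where 6.59% of all genes fell and 1.14% rose. Single libraries moved some counts: in the knockout 8 members fell without wild-type library 1 and 8 without wild-type library 2, and in embryos 0 rose and 5 fell without wild-type library 2, 1 rose and 5 fell without OTX2 library 2, and 1 rose and 8 fell without OTX2 library 3. Over all genes 2099 of 12133 and 2346 of 12138 fell in those knockout refits. In those embryo refits 163, 111 and 188 genes rose and 415, 455 and 528 fell, in that order. The 3 pEPSC comparisons share their wild-type libraries.

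The scaling moved some of these splits. With median-ratio scaling, which brought the median of all genes to between -0.0027 and 0.03 in these 4 comparisons, the counts higher and lower were 14 and 6 in the knockout, 4 and 44 with LEUTX and 2 and 15 in embryos. Over all genes they were then 2973 and 2889 of 12257 in the knockout, 4459 and 4484 of 12546 with LEUTX and 289 and 849 of 8603 in embryos. With TPM as deposited the embryo counts were 10 and 10 among the members, and 1855 and 680 of 8513 over all genes. No called member changed sign between these scalings.

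**Figure D2:**
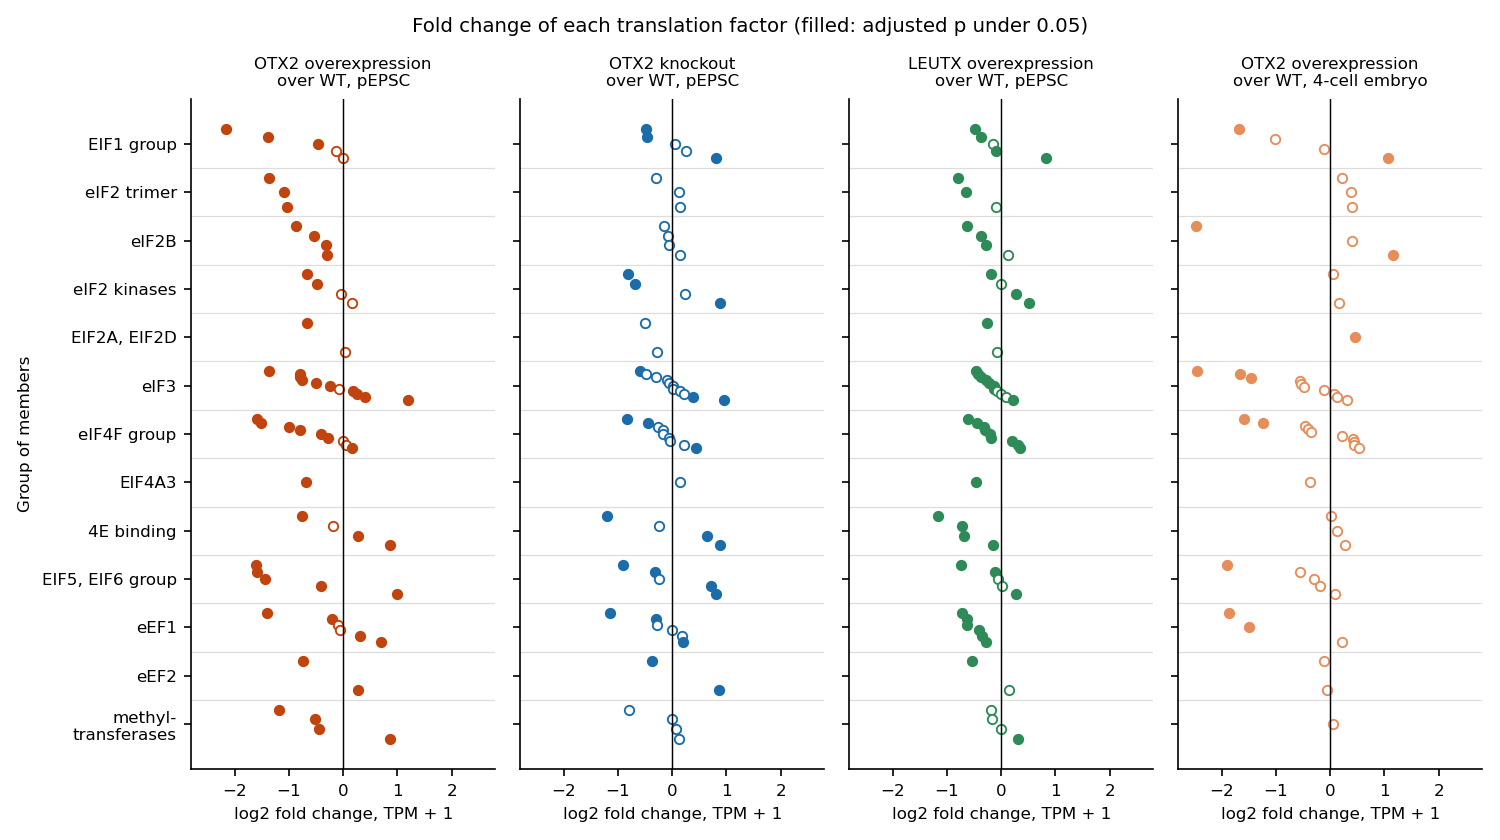
Log2 fold change of every translation factor against wild type, in 13 groups by complex, for the 4 comparisons; filled dots passed an adjusted p of 0.05 in limma. With OTX2 overexpression in pEPSCs all members of eIF2 and eIF2B lie below 0, while eIF3 and eEF1 members lie on both sides.

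The genes of the eIF2 trimer, which carries the initiator tRNA, fell with OTX2 overexpression in pEPSCs, all 3 of them, and 2 of the 3 fell with LEUTX overexpression. The lowest adjusted p of the trimer genes by limma was 0.0628 in the knockout and 0.116 in embryos, above the threshold. Without knockout library 1 EIF2S3 passed as lower in the knockout (adjusted p = 0.000521), and the authors' deposited table calls EIF2S3 higher in embryos. EIF2S3, the GTP-binding gamma subunit (chromosome X, 20129708 to 20162881 in Sscrofa11.1), had 78.0, 80.3 and 82.5 TPM in OTX2-overexpressing, 198, 153 and 163 TPM in OTX2-knockout, 123, 115 and 125 TPM in LEUTX-overexpressing and 216, 210 and 202 TPM in wild-type pEPSCs. All engineered libraries lay below the lowest wild-type one, and the OTX2-overexpressing ones were lowest of all. The log2 fold changes were -1.37 ± 0.0503 with OTX2 overexpression (SE, adjusted p = 3.42e-09), -0.29 ± 0.110 in the knockout (adjusted p = 0.0628, not past the threshold) and -0.79 ± 0.0453 with LEUTX (adjusted p = 6.24e-07). In embryos EIF2S3 had 62.3, 63.8 and 72.1 TPM with OTX2 overexpression and 61.0, 46.4 and 45.3 TPM in wild type, with all OTX2 libraries the higher ones, but the difference of 0.38 ± 0.155 did not pass (adjusted p = 0.128).

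EIF2S2, the beta subunit that contacts EIF5 (chromosome 17, 37551182 to 37570269), was the most abundant of the trimer. It had 188, 212 and 209 TPM with OTX2 overexpression, 551, 417 and 417 TPM in the knockout, 253, 269 and 276 TPM with LEUTX and 414, 420 and 414 TPM in wild type. Only the OTX2- and LEUTX-overexpressing libraries lay below the wild-type range. The log2 fold changes were -1.03 ± 0.0515 (adjusted p = 2.46e-08) with OTX2 overexpression and -0.64 ± 0.0387 (adjusted p = 8.02e-07) with LEUTX. EIF2S1, the alpha subunit that the stress kinases phosphorylate, fell by 1.10 on the log2 scale with OTX2 overexpression, to 40.3, 41.7 and 46.1 TPM against 94.1, 95.7 and 87.5 TPM in wild type. Knockout library 1 held 132 TPM of EIF2S1, against 86.8 and 89.1 TPM in the other knockout libraries. The trimer genes summed to 326 ± 17.1 TPM with OTX2 overexpression, 736 ± 126 in the knockout, 473 ± 14.0 with LEUTX and 718 ± 12.6 in wild type (SD, n = 3 each). In embryos they summed to 550 ± 21.4 TPM with OTX2 overexpression and 466 ± 21.4 TPM in wild type.

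All 4 measured subunits of eIF2B, the exchange factor that reloads eIF2 with GTP, fell with OTX2 overexpression in pEPSCs, by 0.30 to 0.87 on the log2 scale, and 3 of the 4 fell with LEUTX. In the knockout the lowest adjusted p of the 4 was 0.268, but EIF2B3 passed as lower there without knockout library 1 (adjusted p = 0.0412). EIF2B2 (chromosome 7, 98203820 to 98246199) was the most abundant, at 96.7, 96.0 and 93.2 TPM with OTX2 overexpression, 170, 144 and 150 TPM in the knockout, 89.7, 89.1 and 88.4 TPM with LEUTX and 139, 150 and 128 TPM in wild type. The groups overexpressing OTX2 or LEUTX did not overlap with wild type, and the knockout did. In embryos EIF2B2 was at 1.09, 0.572 and 2.49 TPM with OTX2 overexpression and at 8.39, 14.7 and 12.3 TPM in wild type. Its log2 fold change of -2.47 ± 0.330 (adjusted p = 0.00268) and that of EIF3G below were the most negative among the embryo members. EIF2B3 rose in the same embryos, with 13.0, 9.78 and 14.3 TPM under OTX2 overexpression and 5.96, 3.30 and 5.87 TPM in wild type, and a log2 fold change of 1.16 ± 0.250 (adjusted p = 0.0181). Its highest adjusted p with 1 library left out was 0.0701, so that this call was lost without it. EIF2B1, the alpha subunit, had 48.8, 46.3 and 45.2 TPM with OTX2 overexpression, 75.1, 68.3 and 68.4 TPM with LEUTX and 84.4, 97.0 and 77.7 TPM in wild-type pEPSCs, and EIF2B5, the catalytic epsilon subunit, had 78.2, 80.8 and 79.3 TPM with OTX2 overexpression, 77.5, 76.1 and 72.4 TPM with LEUTX and 97.2, 98.0 and 98.3 TPM in wild type. Both overexpressing groups lay below wild type at both genes, and the fall of EIF2B1 with OTX2 overexpression (-0.87 ± 0.0816, adjusted p = 2.81e-06) was the deepest of the 4 subunits.

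The kinases of eIF2 alpha did not move as one group. EIF2AK2 (PKR), which senses double-stranded RNA and is induced by interferon, had 3.51, 4.35 and 3.69 TPM with OTX2 overexpression, 12.7, 11.2 and 10.8 TPM in the knockout, 8.84, 8.41 and 8.88 TPM with LEUTX and 5.31, 5.88 and 6.12 TPM in wild type. The OTX2-overexpressing libraries lay below the wild-type ones and the libraries of the other two engineered groups above them. It fell with OTX2 overexpression (-0.48 ± 0.113, adjusted p = 0.00241) and rose in the knockout (0.89 ± 0.125, adjusted p = 0.00155) and with LEUTX (0.52 ± 0.0904, adjusted p = 0.00069). EIF2AK4 (GCN2), the sensor of uncharged tRNA, had 21.4, 23.8 and 23.7 TPM with OTX2 overexpression, 15.9, 23.5 and 23.0 TPM in the knockout, 32.7, 33.8 and 31.0 TPM with LEUTX and 35.7, 36.3 and 39.0 TPM in wild type. Its engineered libraries were all below wild type, with log2 fold changes of -0.66, -0.82 and -0.18 in that order. EIF2AK3 (PERK), which senses unfolded protein in the endoplasmic reticulum, fell by 0.69 in the knockout and rose by 0.28 with LEUTX, the LEUTX calls of EIF2AK3 and EIF2AK4 being lost in 1 and 3 of 6 refits that left out 1 library, and EIF2AK1, the heme-regulated kinase, had a lowest adjusted p of 0.0758 among the pEPSC comparisons with wild type. That was in the knockout, where EIF2AK1 passed as higher without knockout library 1 (adjusted p = 0.0116). EIF2A, a separate initiator tRNA-binding protein and not the alpha subunit of eIF2, fell with OTX2 overexpression, to 78.1, 84.4 and 93.6 TPM against 139, 138 and 130 TPM in wild-type pEPSCs. In embryos it was higher, at 104, 131 and 115 TPM against 89.2, 77.9 and 84.6 TPM (0.46 ± 0.133, adjusted p = 0.0487).

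The eIF3 complex, the largest initiation factor and the bridge between the ribosome and eIF4F, split within itself. With OTX2 overexpression in pEPSCs EIF3F, EIF3G, EIF3I and EIF3L rose, EIF3A, EIF3D, EIF3E, EIF3H, EIF3J and EIF3M fell, and EIF3K did not pass. In the knockout EIF3F and EIF3G rose, EIF3E fell and the other 8 did not pass. Without knockout library 1 EIF3I passed as higher and EIF3A, EIF3H and EIF3M passed as lower, and the EIF3G call (adjusted p = 0.0448) was lost in 4 of 6 refits that left out 1 library. With LEUTX EIF3J rose, 7 subunits fell and EIF3E, EIF3F and EIF3K did not pass. The sums over the 11 subunits were close together, with means of 4071 TPM under OTX2 overexpression, 4388 in the knockout, 3792 with LEUTX and 4314 in wild type, while the proportions among subunits changed. The most abundant subunit was 11.5 times the least abundant in OTX2-overexpressing cells (EIF3L over EIF3J), and 2.92 times in the knockout, 2.7 times with LEUTX and 3.38 times in wild type.

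**Figure D3:**
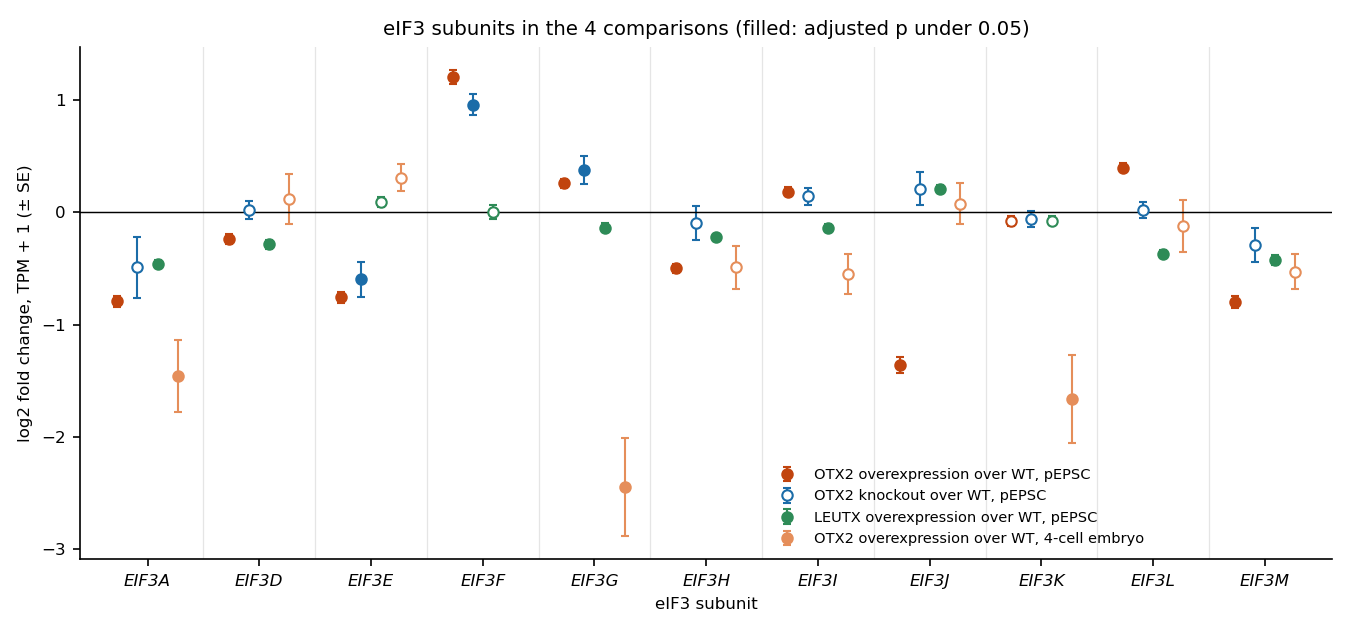
Log2 fold change against wild type, with its standard error, of 11 eIF3 subunits in 4 comparisons. EIF3F and EIF3J lie at opposite ends with OTX2 overexpression in pEPSCs, at 1.20 and -1.36, and EIF3G lies at -2.45 in embryos.

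EIF3F, a subunit of the module of eIF3 that carries MPN domains (chromosome 9, 1291660 to 1297987), was the one member that rose at least 2-fold with OTX2 overexpression. It had 431, 450 and 431 TPM with OTX2 overexpression, 389, 366 and 353 TPM in the knockout, 196, 192 and 181 TPM with LEUTX and 193, 171 and 205 TPM in wild type. The libraries with OTX2 overexpressed or knocked out were all above the wild-type ones, and the LEUTX libraries fell within the wild-type range. The log2 fold changes were 1.20 ± 0.0632 (adjusted p = 3.60e-08) with OTX2 overexpression and 0.96 ± 0.0922 (adjusted p = 0.000424) in the knockout.

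EIF3J, a loosely held subunit that binds near the decoding site, was lowest with OTX2 overexpression among the pEPSC groups. It had 65.5, 67.2 and 79.4 TPM with OTX2 overexpression, 267, 179 and 198 TPM in the knockout, 210, 207 and 217 TPM with LEUTX and 185, 183 and 180 TPM in wild type. Its OTX2-overexpressing libraries were all far below wild type, its LEUTX libraries all above it, and the knockout overlapped with it. The log2 fold change with OTX2 overexpression was -1.36 ± 0.0716 (adjusted p = 3.65e-08). EIF3L, the most abundant subunit in wild-type pEPSCs, had 817, 789 and 834 TPM with OTX2 overexpression, 667, 606 and 606 TPM in the knockout, 484, 475 and 472 TPM with LEUTX and 606, 643 and 600 TPM in wild type. It rose with OTX2 overexpression (0.40 ± 0.0412, adjusted p = 5.65e-06), fell with LEUTX (-0.37 ± 0.0347, adjusted p = 1.37e-05) and did not pass in the knockout, whose range overlapped with wild type. EIF3A, the large scaffold subunit, had 190, 398 and 389 TPM in the knockout against 443, 411 and 447 TPM in wild type. Knockout library 1 alone held the low value, and EIF3A was called in the knockout (lower) once that library was left out. EIF3E, a subunit of the PCI-domain core, had 214, 220 and 230 TPM with OTX2 overexpression, 318, 209 and 228 TPM in the knockout, 384, 400 and 415 TPM with LEUTX and 378, 394 and 352 TPM in wild type. Both OTX2 groups were below wild type and the LEUTX libraries, which overlapped with it, were not (-0.76 with OTX2 overexpression, -0.60 in the knockout, lost without single libraries). EIF3M, another PCI-domain subunit, had 170, 157 and 174 TPM with OTX2 overexpression, 212, 210 and 228 TPM with LEUTX and 295, 301 and 277 TPM in wild type, and fell in both overexpressing groups, by 0.80 and 0.42 on the log2 scale. EIF3K, whose lowest adjusted p in pEPSCs was 0.112, ran from 448 to 508 TPM over all 12 libraries.

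In embryos the eIF3 subunits differed far more in level than in pEPSCs. EIF3M was highest in both groups, and the highest subunit mean was 423 times the lowest with OTX2 overexpression (EIF3G) and 142 times in wild type (EIF3D). EIF3G, the subunit that binds RNA during scanning (chromosome 2, 68966221 to 68970648), had 2.28, 0.967 and 0.996 TPM in OTX2-overexpressing and 7.91, 7.97 and 25.1 TPM in wild-type embryos. The groups did not overlap and wild-type library 3 stood far above the other wild-type libraries. The log2 fold change was -2.45 ± 0.434 (adjusted p = 0.00846), whereas in pEPSCs EIF3G had 521, 506 and 508 TPM with OTX2 overexpression and 419, 449 and 416 TPM in wild type, a rise of 0.26 ± 0.0423 (adjusted p = 0.000202). EIF3K and EIF3A also fell in the embryos, by 1.66 and 1.45 on the log2 scale, and the other 7 measured subunits did not pass.

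Of 9 genes of the cap-binding complex eIF4F and its helicases, 6 fell and EIF4H rose with OTX2 overexpression in pEPSCs. EIF4E, which binds the cap (chromosome 8, 121409633 to 121464467), had 37.7, 39.0 and 41.8 TPM with OTX2 overexpression, 110, 97.5 and 113 TPM in the knockout, 101, 103 and 109 TPM with LEUTX and 120, 122 and 120 TPM in wild type. The OTX2-overexpressing libraries held at most 41.8 TPM and those of the other pEPSC groups at least 97.5 TPM. The log2 fold change was -1.58 ± 0.0590 (adjusted p = 3.68e-09) with OTX2 overexpression and -0.20 ± 0.0419 (adjusted p = 0.00203) with LEUTX. EIF4A1, the helicase that unwinds the leader of the mRNA (chromosome 12, 52868479 to 52874248), had 1185, 1198 and 1090 TPM with OTX2 overexpression, 3362, 3117 and 3126 TPM in the knockout, 2174, 2115 and 2179 TPM with LEUTX and 3324, 3383 and 3178 TPM in wild type. Both overexpressing groups lay below wild type without overlap, and the knockout overlapped with it. The log2 fold changes were -1.51 ± 0.0427 (adjusted p = 6.59e-10) with OTX2 overexpression and -0.61 ± 0.0299 (adjusted p = 2.24e-07) with LEUTX, and in the knockout the difference was -0.04 ± 0.0619 (adjusted p = 0.601).

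EIF4A1 was also among the embryo members that fell. It had 91.5, 65.3 and 79.9 TPM in OTX2-overexpressing and 160, 230 and 356 TPM in wild-type embryos, without overlap (-1.58 ± 0.273, adjusted p = 0.00783). Its paralog EIF4A2 had 346, 153 and 210 TPM with OTX2 overexpression and 250, 298 and 358 TPM in wild type, and the difference of -0.42 ± 0.280 did not pass (adjusted p = 0.329). EIF4A1 made up 26.1 ± 4.64% of the EIF4A1 and EIF4A2 sum in OTX2-overexpressing and 44.2 ± 5.42% in wild-type embryos, against 81.6% with OTX2 overexpression, 88.0% in the knockout, 82.4% with LEUTX and 86.3% in wild type among pEPSCs. The pEPSC and embryo shares come from tables normalized separately and were not compared by a test. EIF4G1, the main scaffold, was at 1.40, 1.80 and 1.45 TPM in OTX2-overexpressing and 3.05, 4.25 and 9.13 TPM in wild-type embryos, a fall of 1.24 on the log2 scale that was lost without some libraries. EIF4E1B, the oocyte form of the cap-binding protein, had 76.7, 78.6 and 73.0 TPM with OTX2 overexpression and 63.5, 53.5 and 52.5 TPM in wild type. All OTX2 libraries were above the wild-type ones, and the adjusted p of 0.0581 missed the threshold.

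The paralogs of these genes took different courses in pEPSCs. EIF4A2 had 238, 258 and 288 TPM with OTX2 overexpression, 385, 428 and 491 TPM in the knockout, 446, 484 and 452 TPM with LEUTX and 541, 495 and 528 TPM in wild type (adjusted p = 2.71e-07 with OTX2 overexpression). Its OTX2-overexpressing libraries were the lowest, and all engineered libraries were below the lowest wild-type one. EIF4E2, a cap-binding homologue that takes part in repression, had 165, 164 and 182 TPM with OTX2 overexpression, 244, 231 and 216 TPM in the knockout, 138, 149 and 129 TPM with LEUTX and 173, 162 and 174 TPM in wild type. It rose in the knockout (0.44 ± 0.0817, adjusted p = 0.00473) and fell with LEUTX (-0.29 ± 0.0560, adjusted p = 0.00138), and its OTX2-overexpressing libraries overlapped with wild type. EIF4G2, a scaffold-like protein that lacks the EIF4E-binding part of EIF4G1, had 608, 631 and 696 TPM with OTX2 overexpression, 828, 832 and 826 TPM with LEUTX and 1164, 1104 and 1099 TPM in wild type. Both overexpressing groups were below wild type without overlap (-0.80 and -0.44). EIF4G1 ran from 338 to 593 TPM over the 12 pEPSC libraries, with both extremes in the knockout, where library 1 was the low one.

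EIF4G3, a second scaffold, separated the pEPSC groups. It had 87.9, 84.1 and 78.6 TPM with OTX2 overexpression, 40.7, 64.7 and 66.0 TPM in the knockout, 132, 129 and 122 TPM with LEUTX and 98.6, 95.5 and 109 TPM in wild type. LEUTX libraries were all above the wild-type ones and both OTX2 groups all below, with log2 fold changes of -0.27 with OTX2 overexpression, -0.84 in the knockout and 0.34 with LEUTX. EIF4H, a helper of the helicase, rose by 0.16 with OTX2 overexpression, a small change that had the opposite sign in the authors' deposited table. The eIF4F and helicase genes summed to 3603 ± 33.8 TPM with OTX2 overexpression, 6246 ± 211 in the knockout, 4889 ± 5.65 with LEUTX and 6480 ± 79.3 in wild type (SD, n = 3 each). In embryos the sums were 1193 ± 179 TPM with OTX2 overexpression and 1524 ± 173 TPM in wild type. EIF4A3, a paralog that sits in the exon junction complex and does not take part in eIF4F, had 228, 231 and 230 TPM with OTX2 overexpression, 437, 395 and 392 TPM in the knockout, 271, 261 and 266 TPM with LEUTX and 368, 373 and 359 TPM in wild type. It fell with OTX2 overexpression (-0.68 ± 0.0395, adjusted p = 7.65e-08) and with LEUTX (-0.46 ± 0.0326, adjusted p = 2.09e-06), and the knockout libraries were all above the wild-type ones without passing the test.

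**Figure D4:**
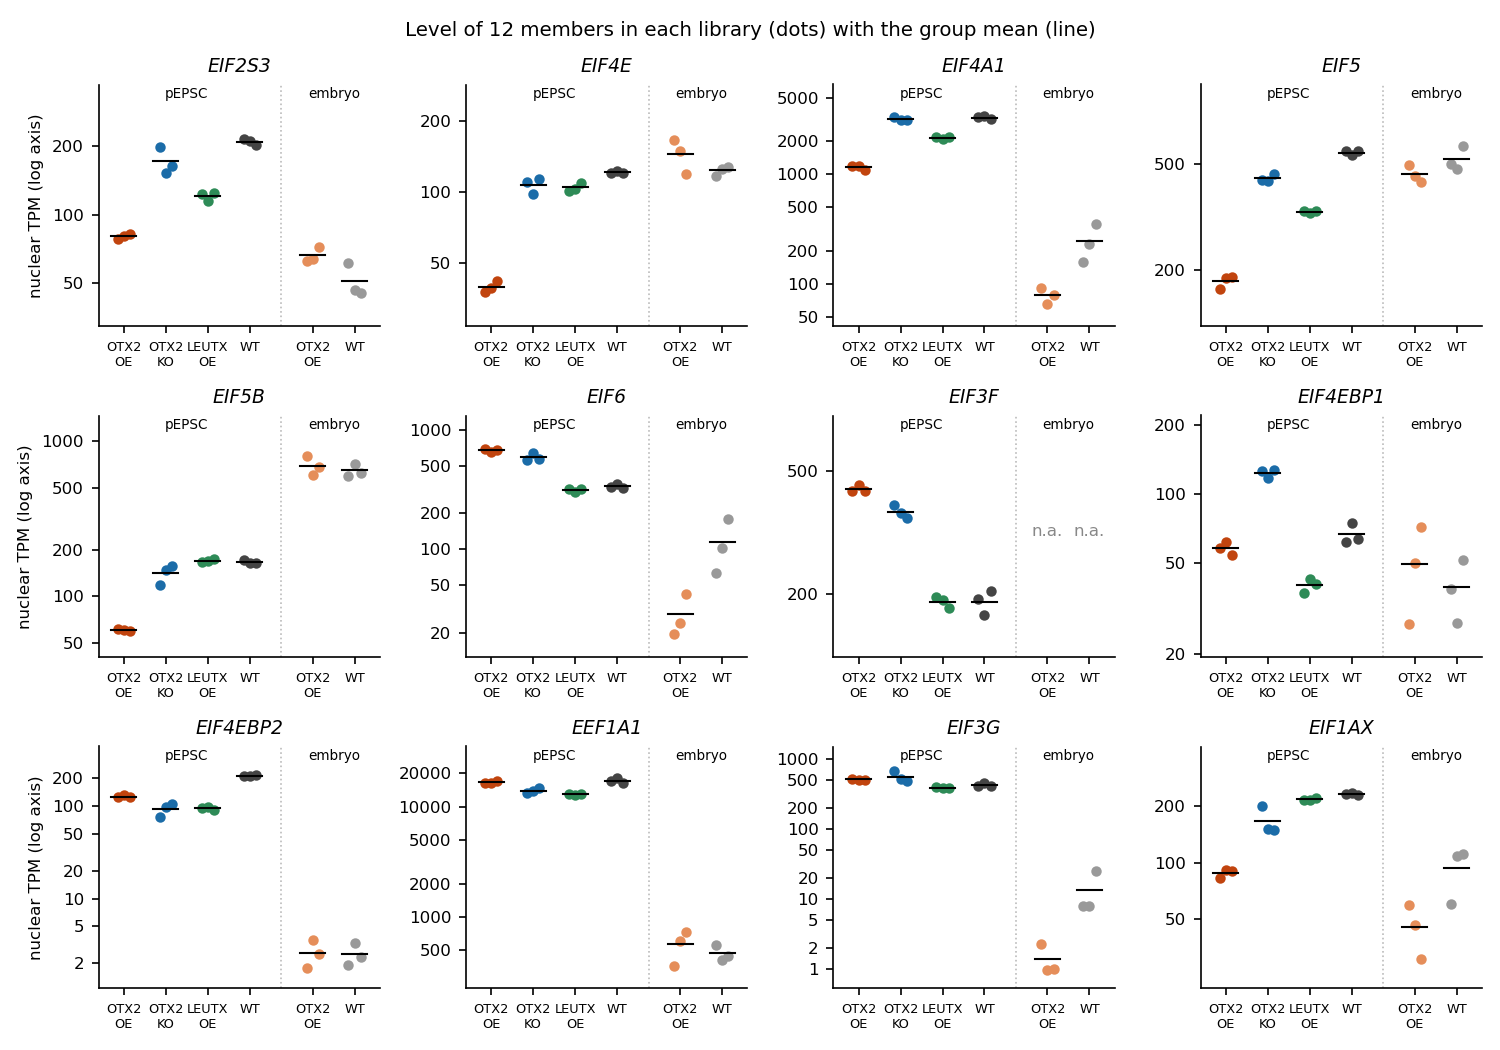
Nuclear TPM, on a log axis, of 12 translation factors in 6 groups; dots are libraries, lines are means, and n.a. marks a gene not analysed in the embryo table. EIF4E, EIF2S3 and EIF5 are lowest in OTX2-overexpressing pEPSCs among the pEPSC groups, and EIF3F and EIF6 are high in both OTX2 groups.

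The 4E-binding proteins, which hold EIF4E away from the scaffold, changed their proportions in the knockout. EIF4EBP1 (chromosome 15, 48423001 to 48443373) had 58.3, 61.9 and 54.1 TPM with OTX2 overexpression, 126, 117 and 127 TPM in the knockout, 36.8, 42.4 and 40.4 TPM with LEUTX and 61.8, 74.3 and 63.4 TPM in wild type. The knockout libraries were all above and the LEUTX libraries all below wild type, with log2 fold changes of 0.89 ± 0.101 (adjusted p = 0.00078) and -0.72 ± 0.0810 (adjusted p = 4.39e-05). EIF4EBP2 (chromosome 14, 73323609 to 73355443) had 124, 131 and 126 TPM with OTX2 overexpression, 76.3, 98.9 and 105 TPM in the knockout, 95.4, 97.7 and 91.5 TPM with LEUTX and 211, 214 and 217 TPM in wild type. Every engineered library was below every wild-type one. EIF4EBP2 fell by 0.75 on the log2 scale with OTX2 overexpression, by 1.20 in the knockout (adjusted p = 0.000598) and by 1.17 with LEUTX. Of the EIF4EBP1 and EIF4EBP2 sum, EIF4EBP1 made up 31.4% with OTX2 overexpression, 57.1 ± 4.54% in the knockout, 29.6% with LEUTX and 23.7% in wild type. EIF4EBP3 rose with OTX2 overexpression by 0.86, to 20.6, 19.0 and 23.4 TPM against 13.7, 10.0 and 9.90 TPM in wild type, and fell with LEUTX, to 7.63, 5.44 and 6.60 TPM. EIF4ENIF1, which carries EIF4E into the nucleus, rose by 0.27 with OTX2 overexpression and fell by 0.15 with LEUTX, a call lost in 5 of 6 refits that left out 1 library (highest adjusted p = 0.114), and in embryos the lowest adjusted p of the 3 measured members of this group was 0.456.

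EIF1 and its relatives act while the ribosome looks for the start codon. EIF1 itself had 509, 496 and 605 TPM with OTX2 overexpression, 1243, 830 and 1062 TPM in the knockout, 451, 448 and 466 TPM with LEUTX and 627, 504 and 636 TPM in wild-type pEPSCs. The knockout libraries were all above wild type and the LEUTX ones all below, and the OTX2-overexpressing ones overlapped with it. EIF1 rose in the knockout (0.81 ± 0.161, adjusted p = 0.00606) and fell with LEUTX (-0.36 ± 0.0783, adjusted p = 0.00246). EIF1AX, which fills the A site of the small subunit (chromosome X, 16429625 to 16449581), had 83.3, 91.3 and 90.4 TPM with OTX2 overexpression, 200, 152 and 150 TPM in the knockout, 217, 217 and 222 TPM with LEUTX and 233, 236 and 231 TPM in wild type. EIF1AY, its copy on chromosome Y (9687350 to 9704489), had 10.3, 11.2 and 12.6 TPM with OTX2 overexpression, 46.0, 34.1 and 37.4 TPM in the knockout, 96.5, 100 and 94.3 TPM with LEUTX and 55.9, 52.4 and 54.6 TPM in wild type. Both were lowest with OTX2 overexpression, and EIF1AY was highest with LEUTX, all groups being apart from wild type at EIF1AY. EIF1AY fell with OTX2 overexpression (-2.16 ± 0.0860, adjusted p = 5.42e-09), the largest fall of any member there, and rose with LEUTX (0.83 ± 0.0479, adjusted p = 6.50e-07). How reads shared by these near-identical copies were counted is not given in the sources used here, so the split between them is uncertain, as it is between EEF1A1 and EEF1A2.

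EIF1B, a paralog of EIF1, moved in opposite directions in the 2 systems. In pEPSCs it had 171, 179 and 173 TPM with OTX2 overexpression and 246, 239 and 235 TPM in wild type (-0.46 ± 0.0443, adjusted p = 3.32e-06). In embryos it had 444, 569 and 719 TPM with OTX2 overexpression and 332, 225 and 264 TPM in wild type (1.06 ± 0.207, adjusted p = 0.0125). The embryo groups did not overlap, though the adjusted p reached 0.0562 with 1 library left out. EIF1B made up 21.5% of the EIF1 and EIF1B sum in embryos with OTX2 overexpression and 11.2% in wild type. EIF1AD, named for its resemblance to EIF1A, fell in embryos, with 2.33, 1.10 and 2.06 TPM under OTX2 overexpression and 7.34, 7.51 and 9.02 TPM in wild type (-1.69 ± 0.233, adjusted p = 0.00294).

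Among the factors of start-site commitment and subunit joining EIF5, EIF5A2, EIF5B and EIF5A fell with OTX2 overexpression in pEPSCs and EIF6 rose. EIF5, the GTPase activator of eIF2, had 170, 187 and 188 TPM with OTX2 overexpression, 434, 432 and 461 TPM in the knockout, 332, 329 and 333 TPM with LEUTX and 559, 540 and 558 TPM in wild type. All engineered groups were below wild type without overlap, in the order OTX2 overexpression, LEUTX overexpression, knockout from the lowest. The log2 fold changes were -1.60 ± 0.0490 (adjusted p = 1.11e-09) with OTX2 overexpression, -0.32 ± 0.0672 (adjusted p = 0.00748) in the knockout and -0.73 ± 0.0298 (adjusted p = 7.18e-08) with LEUTX. EIF5B, the GTPase of subunit joining (chromosome 3, 54861759 to 54930826), had 61.8, 61.1 and 59.9 TPM with OTX2 overexpression and 171, 165 and 163 TPM in wild type (-1.44 ± 0.0499, adjusted p = 2.47e-09). With LEUTX it had 166, 169 and 173 TPM, which overlapped with wild type, and in embryos it had 805, 604 and 678 TPM with OTX2 overexpression and 601, 717 and 628 TPM in wild type, which overlapped too.

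EIF6, which keeps the ribosomal subunits apart and serves in ribosome maturation (chromosome 17, 38638295 to 38643918), went the other way. It had 687, 651 and 675 TPM with OTX2 overexpression, 555, 643 and 564 TPM in the knockout, 318, 300 and 318 TPM with LEUTX and 334, 352 and 322 TPM in wild type. The libraries of both OTX2 groups held at least 555 TPM and those of LEUTX overexpression and wild type at most 352 TPM. It rose with OTX2 overexpression (1.00 ± 0.0444, adjusted p = 1.13e-08) and in the knockout (0.80 ± 0.0842, adjusted p = 0.000587). In embryos EIF6 had 19.3, 24.0 and 42.4 TPM with OTX2 overexpression and 63.0, 102 and 177 TPM in wild type (-1.91 ± 0.394, adjusted p = 0.0158), and its adjusted p reached 0.0632 with 1 library left out. EIF5A, which carries the modified lysine hypusine and relieves stalled ribosomes, had 927, 905 and 1021 TPM with OTX2 overexpression, 2125, 2010 and 2147 TPM in the knockout, 1219, 1219 and 1224 TPM with LEUTX and 1263, 1248 and 1289 TPM in wild type. It rose in the knockout (0.72 ± 0.0607, adjusted p = 0.000255) and fell with OTX2 overexpression (-0.42 ± 0.0465, adjusted p = 1.09e-05). Its paralog EIF5A2 was low in pEPSCs, at 2.22, 3.00 and 2.63 TPM with OTX2 overexpression, 6.14, 4.30 and 4.18 TPM in the knockout, 11.7, 12.3 and 12.6 TPM with LEUTX and 10.4, 10.0 and 9.17 TPM in wild type. It fell by 1.59 on the log2 scale with OTX2 overexpression and by 0.90 in the knockout. In embryos EIF5A2 was 29.3% of the EIF5A and EIF5A2 sum with OTX2 overexpression and 32.3% in wild type.

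The members grouped here as eEF1, most of which serve elongation, all fell with LEUTX, 6 of 6. With OTX2 overexpression 2 rose, 2 fell and 2 did not pass. EEF1A1 (chromosome 1, 92421235 to 92425053) had 16451, 16279 and 17110 TPM with OTX2 overexpression, 13239, 13778 and 14820 TPM in the knockout, 13027, 12869 and 13105 TPM with LEUTX and the wild-type values given above. The knockout and LEUTX libraries were below all wild-type ones, and the OTX2-overexpressing ones overlapped with them. EEF1A1 fell in the knockout (-0.30 ± 0.0646, adjusted p = 0.00802) and with LEUTX (-0.40 ± 0.0324, adjusted p = 4.95e-06). EEF1A2, the form of muscle and neurons in mammals, had 16.0, 17.0 and 16.1 TPM with OTX2 overexpression, 3.46, 4.84 and 3.32 TPM in the knockout, 5.53, 6.94 and 5.33 TPM with LEUTX and 8.09, 9.97 and 11.2 TPM in wild type. It was the member of eEF1 that rose most with OTX2 overexpression (0.71) and with EIF4EBP2 it was a member that fell at least 2-fold in the knockout (-1.14 ± 0.176, adjusted p = 0.00222). EEF1E1, a small protein that sits in the multi-synthetase complex, fell with OTX2 overexpression, to 48.7, 58.1 and 59.4 TPM against 153, 156 and 135 TPM in wild type (-1.40 ± 0.0850, adjusted p = 1.13e-07). EEF1G, the gamma subunit of the exchange complex, had 3023, 2939 and 3034 TPM with OTX2 overexpression, 2280, 2538 and 2466 TPM in the knockout, 2025, 1954 and 2001 TPM with LEUTX and 2373, 2552 and 2348 TPM in wild type. EEF1D, its delta subunit, had 609, 617 and 558 TPM with OTX2 overexpression, 782, 797 and 766 TPM in the knockout, 416, 420 and 402 TPM with LEUTX and 667, 688 and 695 TPM in wild type. With OTX2 overexpression EEF1G was above and EEF1D below wild type (0.31 and -0.20), and with LEUTX both were below (-0.28 and -0.73). The eEF1 genes, EEF1E1 included, summed to means of 21746 TPM with OTX2 overexpression, 18628 in the knockout, 16528 with LEUTX and 22028 in wild type.

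EEF2 had 3331, 3443 and 3311 TPM with OTX2 overexpression, 1739, 2405 and 2370 TPM in the knockout, 1924, 1931 and 1902 TPM with LEUTX and 2726, 2896 and 2751 TPM in wild-type pEPSCs. The OTX2-overexpressing libraries were above wild type and the other two groups below it. The log2 fold changes were 0.27 with OTX2 overexpression, -0.38 in the knockout and -0.54 with LEUTX, and the knockout call was lost when single libraries were left out. EEF2K, the kinase that inactivates eEF2, ran opposite to it in both OTX2 groups, with 11.3, 12.6 and 9.97 TPM under OTX2 overexpression (-0.73), 29.9, 38.2 and 40.2 TPM in the knockout (0.86) and 18.8, 19.0 and 20.2 TPM in wild type. In embryos neither passed, and EEF1B2, the exchange factor of eEF1A, fell, with 23.2, 25.8 and 34.3 TPM under OTX2 overexpression and 51.4, 89.6 and 107 TPM in wild type (-1.49 ± 0.274, adjusted p = 0.00955). EEF1E1 fell there too by 1.87 on the log2 scale, with 35.5, 20.7 and 18.0 TPM against 50.3, 66.4 and 210 TPM, where wild-type library 3 was the high one. Among the methyltransferases EEF1AKMT1, which modifies a lysine of eEF1A, rose with OTX2 overexpression, to 14.0, 15.0 and 14.8 TPM against 7.41, 7.24 and 8.09 TPM in wild type (0.86 ± 0.0887, adjusted p = 5.46e-06). EEF1AKMT2, the most abundant of them, fell there, to 31.3, 32.0 and 34.0 TPM against 46.8, 47.1 and 40.7 TPM. EEF1AKMT3 had 5.03, 18.4 and 5.41 TPM with OTX2 overexpression, so that 1 library lay inside the wild-type range of 17.5 to 22.1 TPM, and its call (adjusted p = 0.0446) was lost without single libraries.

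Of the 10 embryo members that fell, wild-type library 3 was the highest wild-type library at 9. How often it was the highest among all genes that fell in embryos was not counted. Only 5 of the 13 embryo calls, all of them falls, held in each of the 6 refits that left out 1 library: EEF1B2, EIF1AD, EIF2B2, EIF3G and EIF4A1. In pEPSCs 47 of 49 calls with OTX2 overexpression, 16 of 24 in the knockout and 40 of 46 with LEUTX held in the same sense. How many of all called genes held in every refit was not counted. The authors' deposited table gave an adjusted p under 0.05 in the same direction for 44, 17, 41 and 11 of the called members. The order is OTX2 overexpression, knockout, LEUTX and embryos, and EIF2A and EIF2B3 were the embryo members that did not pass there. Its own up and down labels of members numbered 1 and 14 with OTX2 overexpression, 4 and 1 in the knockout and 0 and 1 with LEUTX. Such labels over all genes were not counted.

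OTX2-overexpressing and OTX2-knockout cells were next compared directly, in a fit of all 12 pEPSC libraries on the genes present in all 3 tables. In OTX2-overexpressing cells 14 members were higher and 31 lower than in the knockout, where 68.5% of 11954 genes passed, 39.5% higher and 29.0% lower. At least 2-fold, 1 was higher and 14 were lower, where 17.2% and 6.76% of all genes were. The members with the smallest adjusted p were EIF4A1 (-1.47 ± 0.0507, adjusted p = 2.56e-10), EIF5 (-1.28 ± 0.0545, adjusted p = 1.55e-09) and EIF5A (-1.14 ± 0.0517, adjusted p = 2.55e-09), all lower with OTX2 overexpression. EEF2K was lower too (-1.59) while EEF1A2 (1.85) and EEF2 (0.65) were higher. EIF3F and EIF6, high in both groups against wild type, differed between them by 0.24 and 0.20. With median-ratio scaling 8 members were higher and 36 lower, so the number of higher members depends on the scaling. Over all 11954 genes 4147 were then higher and 4314 lower.

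Between LEUTX- and OTX2-overexpressing cells 28 members were higher and 18 lower with LEUTX, where 71.2% of the same genes passed, 40.1% higher and 31.1% lower. At least 2-fold, 9 were higher and 4 lower, where 14.3% and 11.6% of all genes were. EIF1AY (2.99 ± 0.107, adjusted p = 3.70e-10), EIF4E (1.38 ± 0.0715, adjusted p = 6.84e-09) and EIF4A1 (0.90 ± 0.0507, adjusted p = 1.45e-08) were higher with LEUTX and had the smallest adjusted p. EIF3J (1.57), EIF5B (1.46) and EIF5A2 (1.87) were higher as well. EIF4EBP3 (-1.55), EEF1A2 (-1.33), EIF3F (-1.20) and EIF6 (-1.10) were lower with LEUTX. After median-ratio scaling 23 members were higher and 22 lower with LEUTX, and on the unscaled TPM 25 and 21. Over all 11954 genes the counts were 4247 and 4361 after median-ratio scaling, and 4029 and 3980 on the unscaled TPM.

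The effect of OTX2 overexpression in embryos was then set against its effect in pEPSCs with an interaction term, over 7442 genes in both tables. Of 47 members, 20 had a more positive and 9 a more negative effect in embryos, where 62.5% of genes passed, 41.4% more positive and 21.1% more negative. At least 2-fold, 13 of the 47 members (27.7%) were more positive and 7 (14.9%) more negative in embryos, against 22.6% and 13.7% of all genes. The median difference was 0.37 over the members and 0.33 over all genes. With median-ratio scaling 15 members were more positive and 12 more negative, 8 of each at least 2-fold, where 2229 and 2078 of the 7442 genes were more positive and more negative, so that most of the imbalance depends on the scaling. The 4 smallest adjusted p were those of EIF4E (1.80 ± 0.157, adjusted p = 2.14e-06), EIF2S3 (1.75 ± 0.161, adjusted p = 3.08e-06), EIF5 (1.42 ± 0.138, adjusted p = 4.50e-06) and EIF2S2 (1.24 ± 0.122, adjusted p = 4.59e-06). These 4 fell with OTX2 overexpression in pEPSCs and did not pass in embryos. EIF6, EIF3G, EIF1B, EIF2A and EIF2B3 passed in both systems with opposite signs. EIF6 and EIF3G were higher with OTX2 overexpression in pEPSCs and lower in embryos, and the other 3 were lower in pEPSCs and higher in embryos. Of their embryo calls only that of EIF3G held in each refit that left out 1 library. EIF2A and EIF2B3 were not called in the authors' deposited table of the embryos. The share of all genes called with opposite signs was not counted. EIF4A1 fell in both systems, and its interaction of -0.07 ± 0.313 did not pass (adjusted p = 0.855). The embryo and pEPSC libraries differ in method and amount of input, and what this adds to the differences cannot be told apart from the system.

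**Figure D5:**
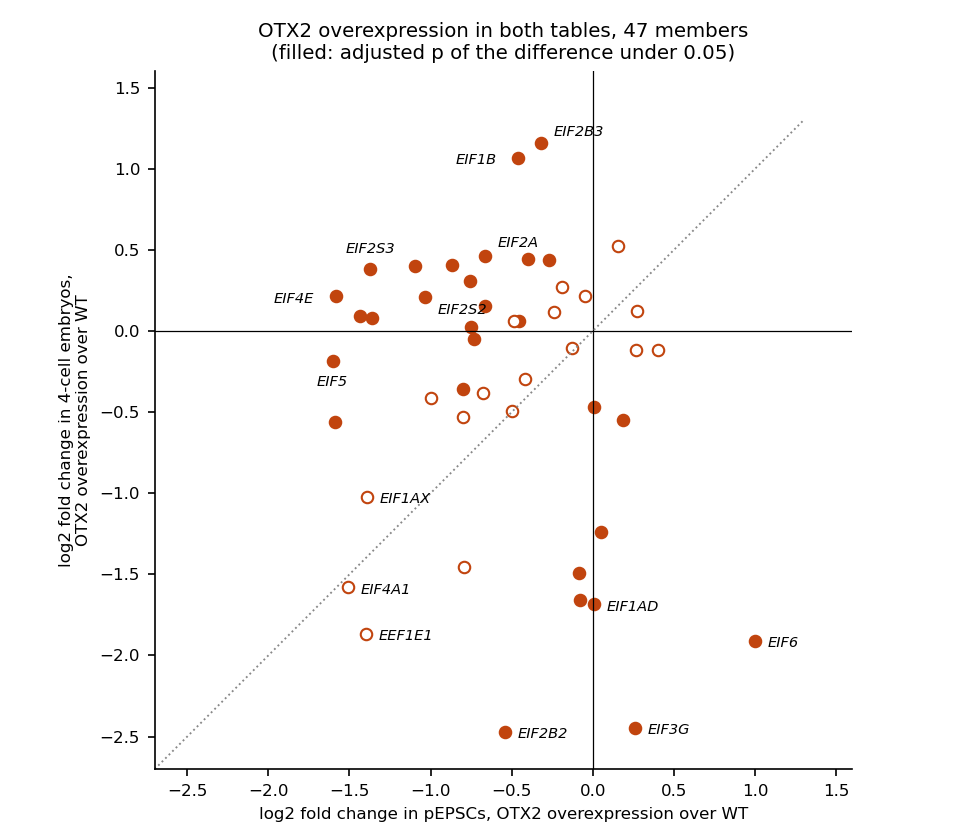
Log2 fold change with OTX2 overexpression in embryos (vertical) against that in pEPSCs (horizontal) for 47 translation factors; filled dots differed between the systems at an adjusted p of 0.05 and the dotted line marks equality. EIF4E and EIF2S3 lie at -1.58 and -1.37 in pEPSCs and above 0 in embryos, and EIF6 and EIF3G lie on the positive side in pEPSCs and below 0 in embryos.

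A list of 24 other genes of translation and its control was read in the same fits. Of 23 tested in each pEPSC comparison, 7 rose and 15 fell with OTX2 overexpression, 2 rose and 7 fell in the knockout, and 6 rose and 9 fell with LEUTX, where 82.2%, 45.5% and 70.3% of all genes passed in these comparisons. Over all genes 45.4% rose and 36.8% fell with OTX2 overexpression, 17.6% and 27.9% in the knockout, and 42.8% and 27.5% with LEUTX. Without knockout library 1, 4 of the listed genes rose and 11 fell in the knockout, where 3411 and 4420 of 12163 genes did. BZW1, a competitor of EIF5 for eIF2, had 172, 181 and 205 TPM with OTX2 overexpression against 615, 559 and 541 TPM in wild type (log2 fold change -1.62, adjusted p = 1.23e-08). ABCE1, which splits ribosomes after termination, had 55.9, 57.4 and 63.0 TPM against 150, 143 and 135 TPM (-1.27, adjusted p = 3.11e-08). MKNK1, a kinase of EIF4E, had 51.2, 53.8 and 44.8 TPM against 14.8, 13.4 and 13.1 TPM (1.78, adjusted p = 2.42e-08). The OTX2-overexpressing and wild-type libraries did not overlap at any of these 3.

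PDCD4, an inhibitor of EIF4A, had 19.4, 17.2 and 17.2 TPM in the knockout, 92.2, 94.4 and 95.0 TPM with LEUTX and 43.1, 43.2 and 42.5 TPM in wild type. It fell in the knockout (-1.21, adjusted p = 0.000279) and rose with LEUTX (1.11, adjusted p = 5.98e-08). ATF4, the transcription factor whose mRNA is translated when eIF2 alpha is phosphorylated, had 320, 358 and 366 TPM in the knockout against 561, 502 and 568 TPM in wild type (-0.64, adjusted p = 0.0014), and 282, 275 and 259 TPM with OTX2 overexpression. In embryos 3 of 17 tested fell by limma, where 16.2% of all genes passed, 7.65% higher and 8.59% lower. The largest rise, that of MKNK1 (0.54), missed the threshold (adjusted p = 0.0609). DENR, which serves reinitiation and recycling, had 2.83, 1.91 and 2.89 TPM with OTX2 overexpression and 34.2, 60.5 and 92.4 TPM in wild-type embryos (-4.06, adjusted p = 0.000363). The termination factor ETF1 (-2.24) and the poly(A)-binding protein PABPC1 (-2.54) also fell in embryos, with 7.09, 2.00 and 1.73 TPM of PABPC1 under OTX2 overexpression and 10.8, 28.9 and 35.8 TPM in wild type. The embryo groups did not overlap at DENR or PABPC1.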

How the data were processed

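RNA-seq libraries of 4 pEPSC groups and 2 groups of 4-cell embryos, 3 per group, were taken from 4 tables, each holding one engineered group and its wild type. Per the file headers the authors deposited TPM per gene and library, a mean normalised count signal per gene, a log2 fold change with its standard error score, and a p-value and adjusted p-value. The submitters' processing notes list DESeq2, featureCounts 2.0.0, the aligner STAR 2.7.3, Trim Galore 0.6.6 StringTie 2.1.4 and the build Sscrofa11.1, without saying which tool made which column, and the counting strand is not given in the sources used here. TPM keeps no depth, so the depth of each library is unknown. The authors' mean normalised count of the members ran from 85.9 to 172037 in the knockout table and from 68.2 to 23008 in the embryo table, which limits the precision of the low members. The tables hold genes with a mean of at least 1 TPM.

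TPM was rescaled to nuclear genes, leaving out the 35 to 37 mitochondrially encoded rows of each table, genes were kept at 1 TPM or more in at least 3 libraries, and log2(TPM + 1) was fitted in limma 3.58.1 with trended, robust empirical Bayes (statmod 1.5.0, R 4.3.3), two-sided, with Benjamini-Hochberg adjustment over all genes tested. Tables were read with pandas 2.3.3 in Python 3.11.15. The fits were tested on simulated data. The wild-type values of the 3 pEPSC tables are identical and were used once in fits over several tables. Gene positions are those of RefSeq on Sscrofa11.1.

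Knockout columns were matched to their group only, since their numbers (1, 3, 4) differ from those of the labels. Same-numbered libraries of the other groups correlated at -0.185 to 0.109 in their deviations from group means, 1 of 12 pairs being over 0.1. Differently numbered libraries correlated at -0.166 to 0.228. No pairing by number was seen, though with 3 libraries per group this cannot exclude it. Alternatives were other scalings, a pseudocount of 0.1, no filter, a replicate block, a fit over 12 libraries, the authors' own fold changes, and leaving out each library. Members and lists were chosen with earlier results of these data known. Values in every library are given for the 3 members with the highest and the 3 with the lowest fold change of each comparison with wild type (passed, no overlap, mean of at least 5 TPM), the most abundant member of each complex, and the smallest adjusted p of the direct and interaction tests, and others were named by complex. The other 17 samples of the series were not used here.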

Additional observations from a re-analysis of the deposited data

Results flagged for a closer look

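The effect of OTX2 overexpression differed between embryos and pEPSCs at 29 of 47 translation factors by the interaction term in limma. That was 61.7% of them, close to the 62.5% of all 7442 genes that passed. The values below are log2 differences, the effect in embryos minus that in pEPSCs, and a positive value means a higher or less negative effect in embryos. Groups of 3 libraries were not tested for single outlying libraries.

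The median difference was 0.37 over the members and 0.33 over all genes. Differences were positive at 20 members and negative at 9, and at 15 and 12 with median-ratio scaling. Over all genes 41.4% were positive and 21.1% negative, and with median-ratio scaling 2229 and 2078 of 7442 were. Among the positive ones the difference was 1.75 at EIF2S3, 1.50 at EIF2S1 and 1.24 at EIF2S2, the genes of the eIF2 trimer. In eIF2B it was 1.27 at EIF2B1 and 1.48 at EIF2B3, and at the kinase EIF2AK4 it was 0.82. The cap-binding EIF4E differed by 1.80 and its relative EIF4E3 by 0.84, and the scaffolds EIF4G2 and EIF4G3 differed by 0.44 and 0.70. The value was 1.42 at EIF5, 1.53 at EIF5B and 1.03 at EIF5A2. In eIF3 it was 1.07 at EIF3E and 1.44 at EIF3J. EIF1B differed by 1.53, EIF2A by 1.13, EIF4EBP2 by 0.77, the kinase EEF2K by 0.68 and the methyltransferase EEF1AKMT2 by 0.51.

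Among the negative differences EIF6 had the deepest, -2.91, followed by EIF3G at -2.71 and EIF2B2 at -1.93. EIF1AD differed by -1.69, EIF3K by -1.58 and EEF1B2 by -1.41. EIF4G1 was at -1.29, EIF3I at -0.73 and EIF4E2 at -0.47. Of the 29 differences, 26 held in each refit that left out 1 library, and those at EEF1AKMT2, EEF2K and EIF4G2 did not. The share of all genes that held was not counted. Embryo and pEPSC libraries differ in preparation and input, and the part of this in the differences cannot be told apart from the system.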

How the results depend on the processing

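With TPM alone the depth is unknown, groups hold 3 libraries, and no label names separate cultures or animals. Counts of called members that moved by over 1.5 times are given next. Those from the authors' deposited table use its adjusted p under 0.05 and not its own up and down labels. Members lower in the knockout (13) numbered 6 with median-ratio scaling and 6 in the authors' deposited table. Over all genes 3425 of 12257 fell in the knockout here, 2889 of 12257 with median-ratio scaling and 2999 of 12264 in that table. Members higher with LEUTX (9) numbered 4 with median-ratio scaling, 4 in a fit over all 12 pEPSC libraries and 5 in the authors' deposited table. Over all genes 5364 of 12546 rose with LEUTX here and 4459 of 12546 with median-ratio scaling. In the fit over 12 libraries 3964 of 11954 genes rose, and 4210 of 12551 in the authors' deposited table. Members higher in OTX2-overexpressing embryos (3) numbered 10 with TPM as deposited, and those lower (10) numbered 20 in the authors' deposited table. Over all genes 658 of 8603 rose in embryos here and 1855 of 8513 with TPM as deposited. Falls over all genes in embryos numbered 739 of 8603 here and 1417 of 8606 in the authors' deposited table. Members higher with OTX2 overexpression than in the knockout (14) numbered 8 with median-ratio scaling, where the count over all 11954 genes went from 4718 to 4147. Of the counts at least 2-fold, rises with OTX2 overexpression (1) numbered 2 with TPM as deposited, falls in the knockout (2) numbered 1 in the authors' deposited table, rises in embryos (2) numbered 1 with median-ratio scaling and 0 in the authors' deposited table, and positive interaction values (13) numbered 8 with median-ratio scaling. Over all genes these went from 2854 to 3042, 826 to 780, 98 to 42 and 82, and 1679 to 1017, in that order. Rises of at least 2-fold in the knockout (0) numbered 3 with median-ratio scaling and 4 in the authors' deposited table. Over all genes such rises numbered 506 here, 685 with median-ratio scaling and 855 in the authors' deposited table. Of the other genes of translation, falls in the knockout (7) numbered 11 in the fit over all 12 pEPSC libraries, and in the authors' deposited table falls numbered 14 with LEUTX (9) and 5 in embryos (3). Over all genes falls in the knockout went from 3425 to 4444 in that fit. In the authors' deposited table they went from 3456 to 4476 with LEUTX and from 739 to 1417 in embryos. With each library left out in turn, the counts higher and lower ran from 12 to 12 and 36 to 39 with OTX2 overexpression, 8 to 15 and 8 to 23 in the knockout (23 without knockout library 1, 8 without wild-type library 1 or 2), 8 to 10 and 34 to 37 with LEUTX, and 0 to 4 and 5 to 12 in embryos. Over all genes they ran from 4989 to 6116 and 4606 to 4826 with OTX2 overexpression. In the knockout these were 1421 to 3411 and 2099 to 4420. With LEUTX they were 4609 to 5564 and 3025 to 3395, and in embryos 111 to 1085 and 415 to 784. For OTX2 overexpression against the knockout the member counts ran from 13 to 16 and 31 to 36. All genes gave 4320 to 4881 and 3179 to 4231. For LEUTX against OTX2 overexpression the member counts ran from 26 to 32 and 17 to 18. All genes gave 4432 to 5412 and 3386 to 4240. For the interaction the member counts ran from 17 to 24 and 9 to 11. All genes gave 2813 to 3232 and 1423 to 1676. The replicate block, fitted though no pairing by number was seen, gave 12 higher and 38 lower with OTX2 overexpression, and 9 and 33 with LEUTX. It gave 2 and 7 in embryos, and 17 and 10 for the interaction. Without the knockout libraries it gave 32 and 19 for LEUTX against OTX2 overexpression. Over all genes the block gave 5880 and 4731 with OTX2 overexpression, 5042 and 3192 with LEUTX, and 302 and 602 in embryos. It gave 2945 and 1501 for the interaction, and 5334 and 4170 for LEUTX against OTX2 overexpression. No block could be fitted with the knockout, whose columns carry no label number. Of 82 values of named members, 493 of 522 refits under other settings kept direction and call, 14 were weaker, 14 stronger and 1 reversed: EIF2AK4 in embryos was 0.16 here and -0.77 in the authors' deposited table. The cause was not tested.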
